A study of Mus musculus with 22 samples.

Results

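Adrenomedullin is a small peptide that acts on blood vessels through a receptor made of 2 kinds of protein, and the 5 genes described here encode that system in the mouse embryo: the ligand gene *Adm*, the receptor gene *Calcrl* and the accessory protein genes *Ramp1*, *Ramp2* and *Ramp3*. They were taken by name from a raw count table of 24454 genes, with earlier results of these data known. The table holds 22 libraries of 25 cells each, sorted from the aorta-gonad-mesonephros (AGM) region of C57BL/6 embryos at embryonic day (E) 9.5, 10 and 11 and made by SMART-Seq2, which copies polyadenylated RNA. The labels describe every sorted cell as positive for VE-Cadherin, an endothelial surface protein, and split the cells by the surface proteins CD44 and Kit. The CD44Neg population, labelled endothelial, has 10 libraries, of which 4 are from E9.5 and 3 each from E10 and E11. CD44LowKitNeg, labelled hemogenic endothelial, has 6, with 1, 2 and 3 from those stages in turn. CD44LowKitPos, labelled Pre-HSPC (a precursor of blood stem and progenitor cells), has 3 (1 at E9.5 and 2 at E10), and CD44High, labelled HSPC, has 3, all of E11. The embryos were wild type and untreated, and nothing in the labels says which libraries came from separate embryos or litters, so p-values measure the spread between these samples alone. Total counts ran from 3912350 to 8657546 per library.

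CALCRL is a receptor of the G protein-coupled kind that does not bind adrenomedullin alone. A RAMP protein has to accompany it: with RAMP2 or RAMP3 it forms adrenomedullin receptors, and with RAMP1 it forms the receptor for CGRP, a related peptide, in each case raising cyclic AMP inside the cell. Mouse embryos without *Adm*, *Calcrl* or *Ramp2* die in midgestation with vascular and lymphatic defects, which is why the system is known as an endothelial one.

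The genes lie on 4 chromosomes of mm10 (GENCODE vM21 coordinates). *Adm* is at chr7:110627661-110629820 on the plus strand, *Calcrl* at chr2:84330626-84425411 on the minus strand, *Ramp1* at chr1:91179822-91225196 on the plus strand, *Ramp2* at chr11:101246028-101259546 on the plus strand and *Ramp3* at chr11:6658521-6677475 on the plus strand. *Ramp3* shares 101 exonic bases with *Gm11978* on the opposite strand, and the sources used here do not say whether counting used strand, so reads from those bases cannot be told apart. RefSeq promoters (GRCm38.p6, 250 bases before to 50 after the start) were found for 4 of the 5 genes, all but *Ramp2*. The upstream bases that lie outside annotated exons are printed 5′ to 3′ for the ligand, the receptor and *Ramp1*, the RAMP gene with no count in CD44Neg or CD44LowKitNeg, so that the sequence can be set beside the levels below. Capitals mark a match to a searched motif on either strand.
Adm, chr7:110627407-110627656, plus strand: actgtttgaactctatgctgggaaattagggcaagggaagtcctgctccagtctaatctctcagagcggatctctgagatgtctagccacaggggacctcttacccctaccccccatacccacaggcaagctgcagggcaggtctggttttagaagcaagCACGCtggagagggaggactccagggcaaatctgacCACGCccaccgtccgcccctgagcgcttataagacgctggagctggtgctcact
Calcrl, chr2:84425412-84425516, minus strand: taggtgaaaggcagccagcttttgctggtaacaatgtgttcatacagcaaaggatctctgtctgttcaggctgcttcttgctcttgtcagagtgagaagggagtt
Ramp1, chr1:91179572-91179821, plus strand: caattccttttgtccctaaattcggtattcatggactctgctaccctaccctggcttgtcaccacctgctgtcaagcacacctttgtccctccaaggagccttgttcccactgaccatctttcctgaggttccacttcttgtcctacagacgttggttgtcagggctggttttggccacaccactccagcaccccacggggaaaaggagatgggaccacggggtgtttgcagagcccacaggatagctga

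Both strands were searched for 5 motifs. Those of the hypoxia response element were its core letters ACGTG and, as a second form with another first base, the letters GCGTG. The letters searched for the ETS family of transcription factors were AGGAAG. For the GATA family of transcription factors they were AGATAA. For the RUNX family of transcription factors they were TGTGGT. The *Adm* promoter held the second hypoxia form on the other strand, starting at -90 and -54 relative to the start site, and none of the other 4. The *Calcrl* window held the ETS motif at -66 and the second hypoxia form at 21, both outside the printed stretch, and the *Ramp1* window held none of the 5. The *Ramp3* window held the second hypoxia form at -219 and -65 and the ETS motif at -182. Among 32851 promoters of the same length, the first hypoxia form was in 19.6% and the second in 32.4%, the ETS motif in 35.4%, the GATA motif in 11.2% and the RUNX motif in 16.8%. A match is a run of letters and not evidence of binding.

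Levels are given as normalized CPM, counts scaled to library size with edgeR's TMM factors over the 22 libraries. Differences are log2 fold changes fitted with edgeR (quasi-likelihood), with Benjamini-Hochberg correction across every gene tested, and a gene is called at an adjusted p under 0.01. In pools of 25 cells, fewer cells with a transcript and less of it in each cell cannot be told apart.

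In outline, CD44Neg libraries held the whole adrenomedullin set without *Ramp1*: the ligand, the receptor, much *Ramp2* and little *Ramp3*. CD44LowKitNeg libraries held more *Calcrl* and *Ramp2* and no count of *Ramp1*. *Calcrl* and *Ramp2* were lower again in CD44LowKitPos, and CD44High libraries had *Ramp1* with little *Calcrl*, almost no *Ramp2* and no *Adm*.

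**Figure D1:**
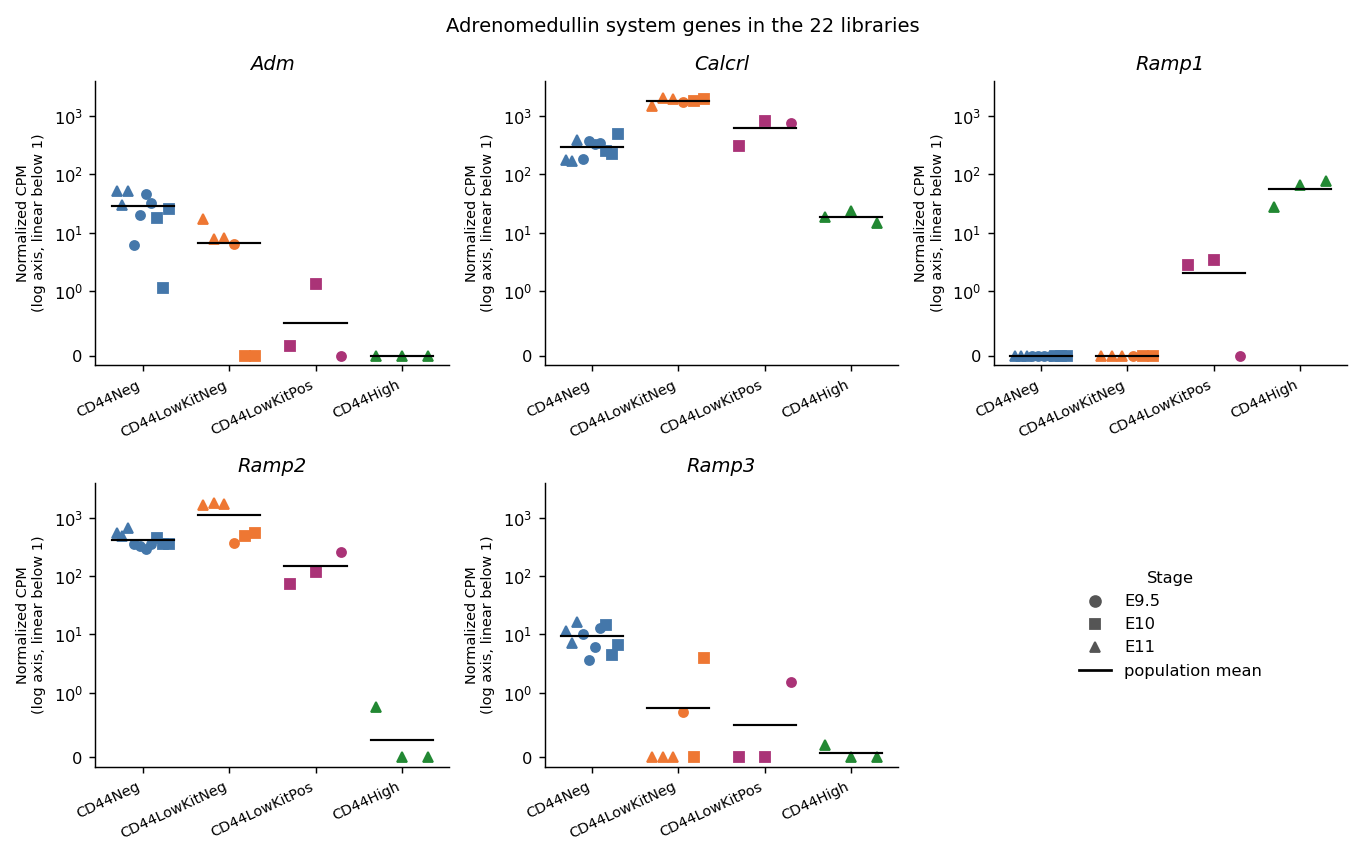
Normalized CPM of the 5 genes in each of the 22 libraries (vertical axis logarithmic above 1 and linear below), by population, with marker shape for stage and a bar at the population mean. *Calcrl* is highest in the 6 CD44LowKitNeg libraries (1519 to 2072 CPM), and *Ramp1* is at 0 in all CD44Neg and CD44LowKitNeg libraries and at 27.6 to 75.6 CPM in CD44High.

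*Adm*, the ligand, was detected in all 10 CD44Neg libraries, at 1.12 to 51.7 CPM with a median of 27.5. In the 6 CD44LowKitNeg libraries it was at 17.3, 7.63 and 8.05 CPM in the E11 replicates 11, 12 and 13, at 6.37 CPM in the E9.5 replicate 14, and at 0 in both E10 replicates. The 3 CD44LowKitPos libraries had 0.155, 1.33 and 0 CPM (1, 10 and 0 counts), and all 3 CD44High libraries had no count. The CD44Neg and CD44LowKitNeg ranges overlapped, although every CD44LowKitNeg library was below the CD44Neg median.

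The fall of *Adm* from CD44Neg to CD44High was called (edgeR adjusted p = 0.00243, n = 10 and 3). With a floor of 3 counts per library, the CD44Neg mean of 28.2 ± 17.7 CPM (SD, n = 10) was at least 38.5-fold higher. This call rests on all 3 CD44High libraries, since leaving out any of them gave an adjusted p of 0.0123 to 0.0147. CD44LowKitNeg, with a mean of 6.56 ± 6.41 CPM (SD, n = 6), was at least 8.96-fold above CD44High, and this missed the threshold (edgeR adjusted p = 0.0122). It was called with stage as a covariate (0.00592), with stages matched (5.6e-04), at E11 alone (5.7e-04), by DESeq2 (1.4e-04) and without CD44Neg replicate 9 or CD44LowKitNeg replicate 15 or 16 (0.00497 to 0.00854).

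The other *Adm* differences were not called by edgeR with all libraries. CD44LowKitNeg against CD44Neg gave a log2 fold change of -2.09 ± 0.87 (SE, edgeR adjusted p = 0.0966), and -1.95 at E11 alone (adjusted p = 0.0408). It was called only in the fit that weights the shared stages equally (adjusted p = 0.00485), which includes E10, where CD44LowKitNeg had no count, so its fold is not given. CD44LowKitPos against CD44Neg gave -5.73 ± 1.61 (SE, edgeR adjusted p = 0.0306), and it was called with stages matched (adjusted p = 0.00708) and by DESeq2 (6.1e-05).

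*Calcrl*, the receptor, had counts in every library. The CD44Neg libraries ran from 167 to 485 CPM with a median of 292, and the CD44LowKitNeg libraries from 1519 to 2072 CPM with a median of 1860. The 3 CD44LowKitPos libraries had 311, 829 and 751 CPM, and the 3 CD44High libraries 18.2, 23.1 and 14.4 CPM. CD44LowKitNeg was above CD44Neg, above CD44LowKitPos and above CD44High without overlap, and CD44High was below every other library. Among all genes tested, 7.35% were without overlap and lower in CD44LowKitPos than in CD44LowKitNeg, and CD44High was lower without overlap for 12.1% against CD44LowKitPos, 11.7% against CD44LowKitNeg and 9.14% against CD44Neg.

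*Calcrl* was higher in CD44LowKitNeg than in CD44Neg by 2.66 ± 0.21 on the log2 scale (SE, edgeR adjusted p = 4.2e-07). This comparison called 2 of the 4 genes of the system that could be tested, *Calcrl* and *Ramp2*, beside a background of 10.2% of 11022 genes. The 10 CD44Neg and 6 CD44LowKitNeg libraries did not overlap for *Calcrl*, with CD44LowKitNeg higher, as was so for 2.5% of the genes tested. *Calcrl* was called in all 25 alternative analyses, including E11 libraries alone. Several marker genes moved with this rise. Of 12 endothelial markers tested, 2 were called higher in CD44LowKitNeg, *Cdh5* at 955 ± 253 against 343 ± 143 CPM and *Tek* at 1135 ± 393 against 429 ± 55.7 CPM (SD, n = 6 and 10). Of the blood markers, *Spi1* was called higher (21.1 ± 30.0 against 0.865 ± 1.28 CPM) as 1 of 6 tested, and *Nes*, the 1 neural marker tested, lower (14.5 ± 7.42 against 59.1 ± 25.7 CPM). Of the mesenchyme and mural markers *Acta2* had the lowest edgeR adjusted p, 0.0359, which missed the threshold. The summed level of the 8 listed was 0.464 to 109 CPM in CD44Neg, where *Col1a1* and *Dcn* were at 0, and 153 to 293 CPM in CD44LowKitNeg, where *Col1a1* was at 0. Most of it was *Acta2*, a smooth muscle actin gene, at 26.2 ± 38.1 CPM (SD, n = 10) and 163 ± 82.6 CPM (SD, n = 6). Their part in the *Calcrl* and *Ramp2* differences was not tested.

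From CD44LowKitNeg to CD44LowKitPos, *Calcrl* fell by 1.54 on the log2 scale (SE 0.34, edgeR adjusted p = 0.00523), and *Ramp2* was called too, so that 2 of 5 genes were called where 4.26% of 12949 genes were. This call on *Calcrl* was lost without CD44LowKitNeg replicate 12 (adjusted p = 0.0101) or CD44LowKitPos replicate 17 (0.0582) or 18 (0.0118), and with stages matched (0.0480). CD44LowKitPos against CD44Neg gave 1.11 ± 0.28 (SE, edgeR adjusted p = 0.0126), which was not called, with all 3 libraries above the CD44Neg median. It was called by DESeq2 (0.00673) and limma voom (0.00920), and without CD44Neg replicate 10 (0.00540) or CD44LowKitPos replicate 17 (0.00464).

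From CD44LowKitPos to CD44High, *Calcrl* fell by 5.08 on the log2 scale (SE 0.44, edgeR adjusted p = 6.1e-08). The same comparison called *Ramp2*, which makes 2 of 5 genes beside 3.01% of all genes tested. CD44High was also below CD44LowKitNeg, by a log2 fold change of -6.62 ± 0.45 (SE, edgeR adjusted p = 4.4e-10), and below CD44Neg, by -3.97 ± 0.39 (SE, edgeR adjusted p = 6.8e-08). All *Calcrl* calls against CD44High held when each of the 22 libraries was left out in turn. CD44LowKitPos has no E11 library and CD44High has no other, so population and stage cannot be told apart between them.

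*Ramp2* encodes the accessory protein that turns CALCRL into the main adrenomedullin receptor of endothelium. In CD44Neg libraries it ran from 296 to 670 CPM with a median of 358. In CD44LowKitNeg it was at 1652, 1815 and 1719 CPM in the E11 replicates 11, 12 and 13, at 376 CPM in the E9.5 replicate 14 and at 486 and 558 CPM in the E10 replicates 15 and 16.

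CD44LowKitPos libraries had 74.4, 115 and 261 CPM of *Ramp2*, each below every CD44Neg and CD44LowKitNeg library. CD44LowKitPos was lower than CD44Neg without overlap for 4.37% of the genes tested. CD44High had 4 counts in replicate 20 (0.782 CPM) and none in replicates 21 and 22. CD44LowKitNeg thus split by stage, with the E11 libraries above all CD44Neg libraries and the earlier ones within or near the CD44Neg range.

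Across all stages, *Ramp2* was higher in CD44LowKitNeg than in CD44Neg by 1.40 ± 0.30 on the log2 scale (SE, edgeR adjusted p = 0.00257). At E11 alone the difference was 1.66 (edgeR adjusted p = 3.6e-04), and with the shared stages weighted equally it was 0.76 (0.00595). Within each stage every CD44LowKitNeg library was above every CD44Neg library: 376 against at most 354 CPM at E9.5, 486 and 558 against at most 448 CPM at E10, and at least 1652 against at most 670 CPM at E11. With so few libraries a stage, CD44LowKitNeg was higher without overlap for 28.4% of the genes tested among E9.5 libraries, 18.7% among those of E10, 14.5% among those of E11 and 4.94% in all 3 stages. The pooled call was lost without CD44LowKitNeg replicate 12 (adjusted p = 0.0106) or 13 (0.0101) and under limma voom (0.0145).

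*Ramp2* then fell by 2.87 on the log2 scale from CD44LowKitNeg to CD44LowKitPos (SE 0.55, edgeR adjusted p = 0.00206), a call lost without CD44LowKitPos replicate 17 (0.0289) or 18 (0.0167). This value pools stages, and CD44LowKitPos has no E11 library, the stage at which CD44LowKitNeg was highest. At E9.5 CD44LowKitNeg was at 376 and CD44LowKitPos at 261 CPM of *Ramp2* (n = 1 each). At E10 their means were 522 and 94.8 CPM of *Ramp2* (n = 2 each). From CD44LowKitPos to CD44High it fell further (edgeR adjusted p = 3.3e-07), a call lost under limma voom (0.0259). Because CD44High held 4 counts in all, its fold is given from the counts: CD44LowKitPos held 470 times as much per library size (95% counting interval 183 to 1725), CD44Neg 1332 times (520 to 4890) and CD44LowKitNeg 3436 times (1342 to 12611). CD44Neg and CD44High differed with an edgeR adjusted p of 8.5e-09, and CD44LowKitNeg and CD44High with 3.1e-09. CD44LowKitPos was below CD44Neg by a log2 fold change of -1.49 ± 0.48, which was not called (SE, edgeR adjusted p = 0.0623) but was called with stages matched (-1.16, adjusted p = 0.00708) and by DESeq2 (0.00690).

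**Figure D2:**
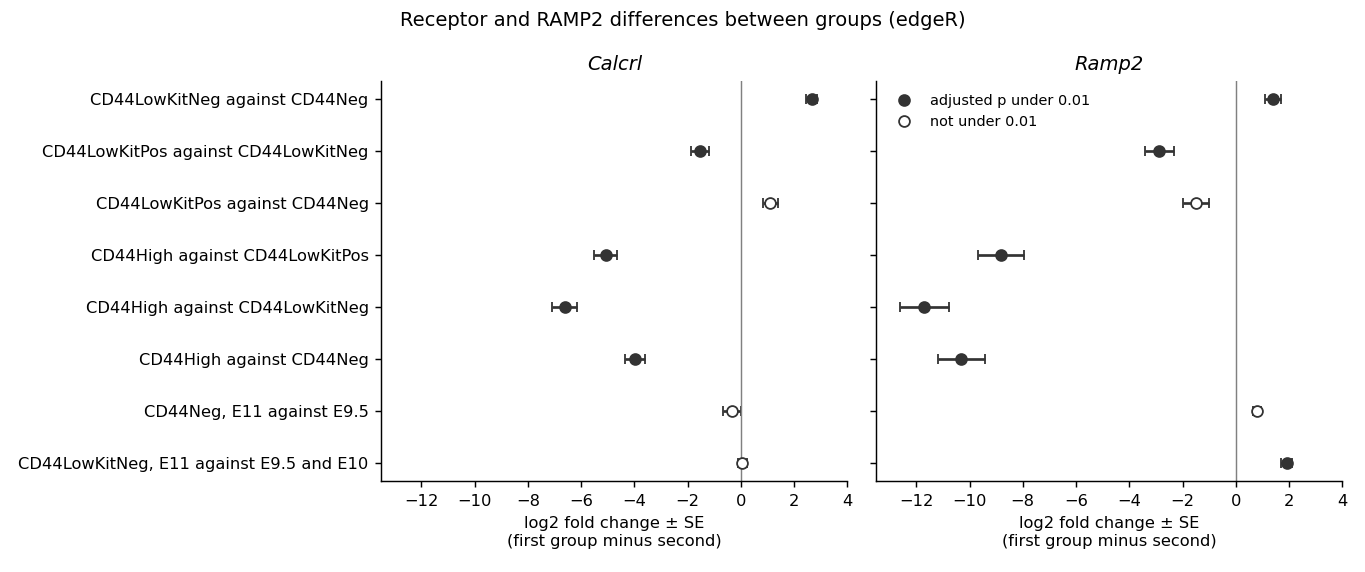
Log2 fold changes of *Calcrl* and *Ramp2* with their standard errors (horizontal axis, edgeR) in 8 comparisons, filled where the adjusted p is under 0.01. Both genes are higher in CD44LowKitNeg than in CD44Neg and lower in CD44High than in each other population, while only *Ramp2* is called between stages of CD44LowKitNeg (1.91 against 0.05 for *Calcrl*). The *Ramp2* values against CD44High depend on 4 counts.

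Endothelial and blood markers moved with these falls. The summed level of 12 endothelial markers was 4753 to 8481 CPM in CD44Neg, 4879 to 11619 in CD44LowKitNeg, 1213 to 2540 in CD44LowKitPos and 73.1 to 169 in CD44High, where 2 of the 12 were at 0. *Cdh5*, the gene of VE-Cadherin, had no count in CD44High, although those cells were sorted as VE-Cadherin positive. The summed level of 10 blood markers ran the other way, at 6.69 to 42.4 CPM in CD44Neg, 11.1 to 334 in CD44LowKitNeg, 566 to 1686 in CD44LowKitPos and 2002 to 3129 in CD44High. Single blood markers did not all follow that sum from CD44LowKitPos to CD44High. There 1 of the 10 was called higher, *Ptprc*, and 0 lower, beside 3.01% of all genes called. The median log2 fold change of the 10 was -0.26, beside -0.02 over all genes. *Rn45s*, the ribosomal RNA precursor, took 6.82 to 9.26% of counts in CD44LowKitPos and 16.6 to 23.9% in CD44High, and the *Calcrl* and *Ramp2* calls between them held with it left out of the counts. The part of these markers in the *Calcrl* and *Ramp2* differences was not tested.

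*Ramp3* encodes the other RAMP of the adrenomedullin receptors and was scarce. It was detected in all 10 CD44Neg libraries, at 3.58 to 16.3 CPM with a median of 8.52. In CD44LowKitNeg it was at 0 in 4 of 6 libraries, including all 3 of E11, with 6 counts in replicate 14 (0.695 CPM) and 29 in replicate 16 (3.92 CPM). CD44LowKitPos had 10 counts in replicate 19 (1.51 CPM) and none in the others, and CD44High had 1 count.

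For *Ramp3*, CD44Neg and CD44LowKitNeg overlapped through replicate 16 alone, and the log2 fold change of -3.54 ± 1.10 was not called (SE, edgeR adjusted p = 0.0266). Without that library it was -5.76 and called (adjusted p = 0.00145), and it was called by DESeq2 (0.00103) and limma voom (8.1e-04). At E11, where CD44LowKitNeg had no count, the CD44Neg mean of 11.5 ± 4.63 CPM (SD, n = 3) was at least 27.6-fold higher. CD44High against CD44Neg was not called either (edgeR adjusted p = 0.0248) but was called by DESeq2 (0.00116) and limma voom (5.5e-04), with CD44Neg at 121 times the CD44High level on 1 count (95% counting interval 21.7 to 4805).

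*Ramp1*, whose protein turns CALCRL into the CGRP receptor, had counts in 5 of the 22 libraries, all of which also held *Calcrl* counts. All 10 CD44Neg and all 6 CD44LowKitNeg libraries had no count, which allows up to 0.430 to 0.794 CPM in CD44Neg libraries and up to 0.348 to 0.503 CPM in CD44LowKitNeg libraries (3 counts, counting error only). The CD44LowKitPos replicates 17 and 18, both of E10, had 18 and 25 counts (2.79 and 3.33 CPM), and replicate 19 of E9.5 had none. The CD44High libraries had 141, 250 and 279 counts (27.6, 66.5 and 75.6 CPM), each above every other library. CD44High was higher without overlap for 11.8% of the genes tested against CD44LowKitPos, 13.5% against CD44LowKitNeg and 9.55% against CD44Neg.

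CD44High held at least 93.4-fold more *Ramp1* than CD44Neg (edgeR adjusted p = 9.7e-05) and at least 135-fold more than CD44LowKitNeg (3.8e-04). With *Ramp1*, 4 of 5 genes were called between CD44High and CD44Neg, beside 14.4% of 12949 genes, and 3 of 5 between CD44High and CD44LowKitNeg, beside 16% of them. Both *Ramp1* calls held in all alternatives that were run, leaving out each library included. CD44High against CD44LowKitPos gave a log2 fold change of 4.78 ± 1.5 without overlap but was not called (SE, edgeR adjusted p = 0.107), while limma voom called it (1.4e-04).

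CD44LowKitPos held at least 3.37-fold more *Ramp1* than CD44Neg, the 1 of 5 genes called there (edgeR adjusted p = 0.00947) beside 3.48% of all genes tested. That call was lost in 15 of the 22 analyses that left out a library, with stage as a covariate (adjusted p = 0.0277), with stages matched (1, with no usable standard error), under limma voom (0.0476) and under DESeq2 (0.190). Against CD44LowKitNeg the edgeR adjusted p was 0.0140, and it was 0.00342 without CD44LowKitPos replicate 19.

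Macrophage markers moved with *Ramp1* as well. All 8 of them had counts in CD44High, with a summed level of 1661 to 4519 CPM, against 0 to 53.9 CPM in the other 19 libraries, where *C1qa* and *Adgre1* were at 0. Within CD44High, replicate 20 had the lowest *Ramp1* and also the lowest *Csf1r* (156 CPM, against 518 and 557) and *C1qa* (86.4 CPM, against 308 and 250), while *Ptprc*, a gene of all white blood cells, was at 428, 429 and 378 CPM. The blood markers *Spi1* (64.1 CPM, against 194 and 248) and *Runx1* (53.9 CPM, against 132 and 81.9) were lowest in replicate 20 as well, so its low values were not confined to macrophage markers. The part of macrophage cells in the *Ramp1* level of CD44High was not tested.

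The share of each RAMP in the summed RAMP signal was then compared. Per exon length, *Ramp2* made up 96.3 to 98.9% of the RAMP signal in CD44Neg, 99.3 to 100% in CD44LowKitNeg and 98.4 to 99.4% in CD44LowKitPos, and 0 to 6.09% in CD44High. *Ramp1* made up 92.3 to 100% in CD44High, 0 to 1.59% in CD44LowKitPos and 0 in the endothelial populations. *Ramp3* peaked at 3.73%, in a CD44Neg library. The CD44High shares rest on 146 to 279 RAMP counts per library.

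**Figure D3:**
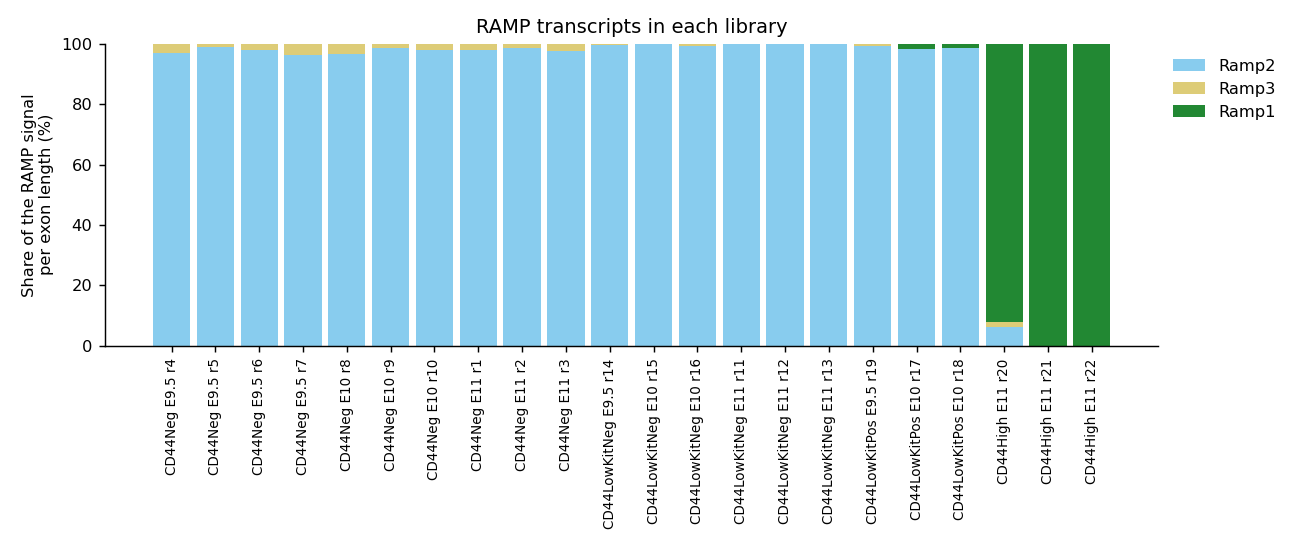
Share of the RAMP signal per exon length (vertical axis, percent) taken by *Ramp1*, *Ramp2* and *Ramp3* in each library, ordered by population and stage (r marks the replicate number). *Ramp2* holds at least 96.3% in the 19 libraries that are not CD44High, and *Ramp1* holds at least 92.3% in the 3 CD44High libraries.

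On average *Ramp2* differed less than *Calcrl* between the endothelial populations, but the test of their ratio missed the 0.01 threshold after adjustment. The log2 ratio of *Ramp2* to *Calcrl* CPM (0.5 CPM added to each) was 0.57 ± 0.73 in CD44Neg (SD, n = 10) and -1.02 ± 1.05 in CD44LowKitNeg (SD, n = 6), a difference of -1.59 (two-sided exact permutation test, p = 0.00699, adjusted over 2 comparisons p = 0.0140). All 6 CD44LowKitNeg libraries were below the CD44Neg median, and the ranges overlapped. CD44LowKitPos stood at -2.14 ± 0.66 (SD, n = 3), which differed from CD44LowKitNeg by -1.12 (two-sided exact permutation test, p = 0.190). That difference mixes stages, since CD44LowKitPos has no E11 library and CD44LowKitNeg was highest at E11. At E9.5 CD44LowKitPos was at -1.52 and CD44LowKitNeg at -2.23 (n = 1 each). At E10 CD44LowKitPos was at -2.06 and -2.84, and CD44LowKitNeg at -1.88 and -1.79.

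The ratio was lower in CD44LowKitNeg than in CD44Neg at each stage. At E9.5 it was -2.23 in the lone CD44LowKitNeg library and -0.18 to 0.93 in CD44Neg, at E10 -1.88 and -1.79 against -0.44 to 0.84, and at E11 -0.19 to 0.12 against 0.80 to 1.63. No stage showed overlap. Per exon length, *Ramp2* was 6.32 times *Calcrl* in the median CD44Neg library, 2.19 times in CD44LowKitNeg (0.797 to 4.08) and 0.898 times in CD44LowKitPos (0.523 to 1.31). These medians mix stages, and CD44LowKitPos has no E11 library. In CD44LowKitNeg, *Ramp2* had a mean of 1330 CPM per kilobase at E11 and 364 before, beside 377 and 375 for *Calcrl*. In CD44High, *Ramp1* was 2.45 to 8.50 times *Calcrl* per exon length.

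**Figure D4:**
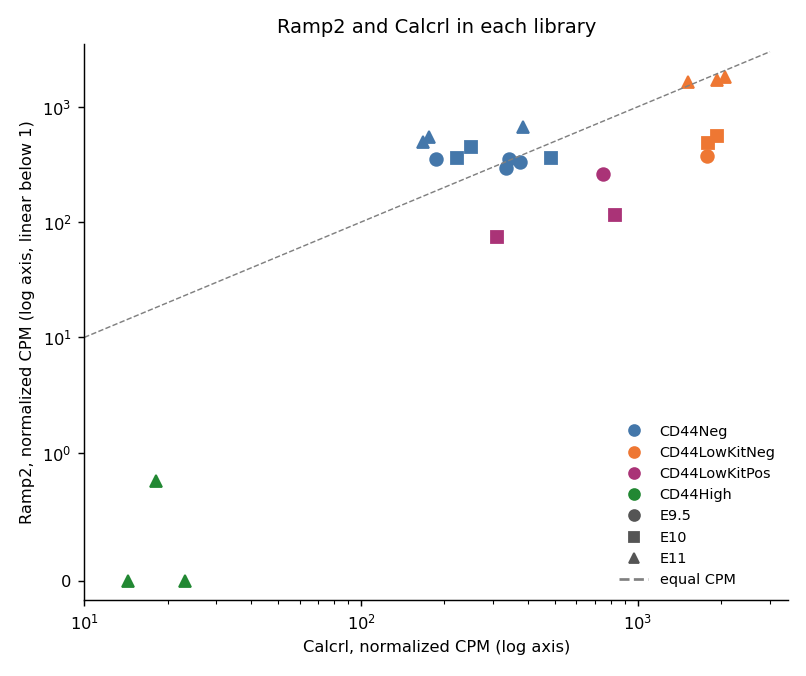
*Ramp2* against *Calcrl* in normalized CPM in each of the 22 libraries (both axes logarithmic, the vertical linear below 1), with colour for population, marker shape for stage and a dashed line at equal CPM. The E11 CD44LowKitNeg libraries lie near the line at 1519 to 2072 CPM of *Calcrl*, and the 3 earlier ones lie below it at the same *Calcrl* level.

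*Ramp2* differed between the stages of CD44LowKitNeg. It was higher at E11 (1728 ± 82.1 CPM, SD, n = 3) than at E9.5 and E10 together (473 ± 92.0 CPM, SD, n = 3), by 1.91 ± 0.19 on the log2 scale (SE, edgeR adjusted p = 0.00696). It was the 1 gene called of the 3 that could be tested, beside 0.173% of 11010 genes. *Calcrl* was at 1842 ± 288 and 1830 ± 87.8 CPM in the same groups (SD, n = 3 each), a log2 fold change of 0.05 ± 0.17 (SE, edgeR adjusted p = 0.928).

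The E11 and earlier libraries did not overlap for *Ramp2*, with E11 higher, which held for 11.9% of the genes tested. Leaving out any of the 6 libraries kept the log2 fold change at 1.74 to 2.02 but took the adjusted p to between 0.0133 and 0.0601. The date in the labels is the same for all libraries of a stage and differs between stages, so stage and date cannot be told apart.

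Other genes moved with that stage difference. In CD44LowKitNeg, the 12 endothelial markers summed to 9273 to 11619 CPM at E11 and to 4879 to 6436 CPM before. The 10 blood markers summed to 11.1 to 20.01 CPM at E11 (4 of 10 at 0) and to 120 to 334 CPM before (1 of 10 at 0). *Runx1*, a transcription factor needed for blood formation, had no count in the 3 E11 libraries and 54.7, 129 and 44.7 CPM in replicates 14, 15 and 16. *Rn45s* took 17.4 to 19.2% of counts in the E11 libraries and 7.29 to 11.1% in the earlier ones. With it left out of the counts, the *Ramp2* difference was 1.90 on the log2 scale (edgeR adjusted p = 0.00687). The part of these genes in the *Ramp2* difference was not tested.

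In CD44Neg, *Ramp2* was at 333 ± 26.7 CPM at E9.5 (SD, n = 4), 388 ± 51.5 at E10 (SD, n = 3) and 571 ± 90.2 at E11 (SD, n = 3), and the 3 ranges did not overlap. E11 was higher without overlap for 9.86% of the genes tested against E9.5 and 7.88% against E10, and E10 was higher than E9.5 for 7.36%. E11 against E9.5 gave 0.80 ± 0.15 on the log2 scale, just outside the threshold (SE, edgeR adjusted p = 0.0120). None of the 4 genes tested was called by edgeR there, where 0.684% of 11250 genes were. At an unadjusted p under 0.05 it was 1 of 4, *Ramp2*, beside 17.1% of genes, and DESeq2 and limma voom each called 1. E11 against E10 gave 0.56 ± 0.17 (SE, edgeR adjusted p = 0.354), with 0% of genes called, 1 of the 4 at an unadjusted p under 0.05 (8.68% of genes) and none called by DESeq2 or limma voom. E10 against E9.5 gave 0.23 ± 0.15 (SE, edgeR adjusted p = 0.522), with 0.0178% of genes called, 0 of the 4 at an unadjusted p under 0.05 (15.2% of genes) and none called by DESeq2 or limma voom. The 12 endothelial markers also summed higher at E11 (7671 to 8481 CPM) than at E9.5 (4753 to 5995 CPM), and their part was not tested.

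Whether the population difference depended on stage was tested on the E10 and E11 libraries of CD44Neg and CD44LowKitNeg. For *Ramp2* the interaction was 1.16 ± 0.24 on the log2 scale and was not called (SE, edgeR adjusted p = 0.0854), and 0 of the 4 genes tested were called, beside 0.00806% of 12403 genes. At an unadjusted p under 0.05 it was 3 of 4, beside 10.7% of genes, while DESeq2 called 1 and limma voom 0. The *Ramp2* interaction passed the threshold under DESeq2 (9.9e-05) and without the filter on low counts (0.00930). For *Calcrl* it was 0.37 ± 0.50 (SE, edgeR adjusted p = 0.884).

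*Adm* and *Ramp3* had no stage difference called by edgeR, DESeq2 or limma voom within a population, where *Ramp3* in CD44LowKitNeg had too few counts to be tested. Their interaction was not called either (edgeR adjusted p = 0.189 for *Adm* and 0.310 for *Ramp3*, unadjusted p = 0.00269 and 0.0122), and that of *Adm* was called without the filter on low counts (0.00491). CD44LowKitNeg had no *Adm* count at E10 and no *Ramp3* count at E11, so no fold is given for these. In CD44Neg, *Adm* was at 44.4 ± 12.5 CPM at E11 and 14.7 ± 12.3 CPM at E10 (SD, n = 3 each) without overlap, a log2 fold change of 1.59 ± 0.80 (SE, edgeR adjusted p = 0.608), and at 26.1 ± 16.95 CPM at E9.5 (SD, n = 4). At E10 the CD44Neg mean was at least 32.4-fold above CD44LowKitNeg, which had no count there, a limit that fell to 21.1-fold without CD44Neg replicate 10.

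Other genes of the peptide system were read from a list of 10 ligands, receptors and processing or binding proteins. The related ligands were at or near 0: *Calcb* and *Iapp* had no count in any library, *Calca*, which encodes CGRP, reached 7.94 CPM in 1 CD44Neg library and had none in CD44High, and *Adm2* had a mean of 1.14 ± 1.23 CPM in CD44High (SD, n = 3) and at most 1 count in each other population. *Calcr*, the calcitonin receptor, reached 2.44 CPM at most.

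*Pam*, the enzyme that amidates adrenomedullin and other peptides, had its highest mean in CD44LowKitNeg, as *Calcrl* did. It was at 89.96 ± 51.0 CPM in CD44Neg (SD, n = 10), 291 ± 60.9 in CD44LowKitNeg (SD, n = 6), 187 ± 86.7 in CD44LowKitPos and 14.1 ± 7.30 in CD44High (SD, n = 3 each). It was called between CD44LowKitNeg and CD44Neg, at 1.70 ± 0.26 on the log2 scale (SE, edgeR adjusted p = 1.6e-04), as the 1 gene of the list called among 4 tested, beside 10.2% of all genes, and was lower in CD44High than in each other population, a call lost against CD44Neg under limma voom (0.0216).

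*Gpr182*, an endothelial receptor once proposed for adrenomedullin, was at 24.5 ± 11.1 CPM in CD44Neg (SD, n = 10) and 22.9 ± 19.2 in CD44LowKitNeg (SD, n = 6). It was called lower in CD44LowKitPos (1.72 ± 1.67 CPM, SD, n = 3) than in each of these, and had no count in CD44High. Both calls were lost under limma voom (edgeR gave 0.00516 against CD44LowKitNeg and 0.00362 against CD44Neg, voom 0.0185 and 0.0160) and without CD44LowKitPos replicate 17 or 18, and the call against CD44LowKitNeg also with stages matched (0.0346). Over the list, 0 genes were higher and 2 lower of 6 tested between CD44High and CD44Neg, beside 14.4% of all genes called, with a median log2 fold change of -3.94 beside -0.02 over all genes. CD44High against CD44LowKitNeg and CD44High against CD44LowKitPos each called 2 of 6, *Pam* and *Gpr182*, both lower, beside 16% and 3.01% of all genes. The *Gpr182* call against CD44LowKitPos was lost in 17 of the 22 analyses that left out a library and under limma voom (0.251).

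The 24 listed genes of cyclic AMP signalling, through which the receptor acts, were read in the same way. Between CD44LowKitNeg and CD44Neg, edgeR called 0 of 18 tested, beside 10.2% of all genes, and 4 were at an unadjusted p under 0.05, beside 32.6%. DESeq2 called 2 and limma voom 1, and the list's median log2 fold change was 0.26 beside 0.01 over all genes. CD44LowKitPos was called lower than CD44LowKitNeg for 3 of 21, beside 4.26% of all genes called in either direction: *Adcy4*, an adenylyl cyclase, from 74.9 ± 41.8 to 7.52 ± 6.21 CPM, *Rapgef4*, a cyclic AMP-activated exchange factor, from 63.8 ± 12.5 to 4.97 ± 8.49 CPM, and *Crem*, a cyclic AMP-responsive transcription factor, from 91.8 ± 65.8 to 12.7 ± 10.0 CPM (SD, n = 6 and 3). The *Rapgef4* call was lost in 19 of the 22 analyses that left out a library and with stage as a covariate (edgeR adjusted p = 0.0122). The *Adcy4* call was lost under limma voom (0.0117), with stages matched (0.0266) and without CD44LowKitPos replicate 17 or 18, and the *Crem* call without replicate 17.

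Against CD44Neg, CD44LowKitPos called 5 of 21, beside 3.48% of all genes. The same 3 were lower and 2 were higher: *Adcy7*, another cyclase, at 25.8 ± 17.3 CPM (SD, n = 3) against 0.554 ± 0.961 (SD, n = 10), and *Prkar2b*, a regulatory subunit of protein kinase A, at 97.3 ± 45.7 CPM (SD, n = 3) against 14.5 ± 10.9 (SD, n = 10). All 5 calls were lost without at least 1 of the CD44LowKitPos libraries. *Crem* was also lost with stage as a covariate (edgeR adjusted p = 0.0243), with stages matched (0.0108) and under limma voom (0.0352), *Prkar2b* in the first 2 of these fits (0.0136 and 0.0115), *Adcy7* with stage as a covariate (0.0211) and under DESeq2 (0.0560), and *Adcy4* under limma voom (0.0226).

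CD44High called 2 higher and 4 lower of 21 cyclic AMP genes against CD44Neg, beside 14.4% of all genes, with *Adcy7* at 90.3 ± 18.5 CPM (SD, n = 3), *Arrb2* higher, and *Adcy4*, *Rapgef3*, *Rapgef4* and *Gnas* lower. *Rapgef3* and *Rapgef4* had no count in CD44High. Against CD44LowKitNeg, CD44High called 2 higher (*Adcy7*, *Arrb2*) and 3 lower (*Adcy4*, *Rapgef3*, *Rapgef4*), beside 16% of all genes, and against CD44LowKitPos 2 lower (*Adcy4*, *Rapgef3*), beside 3.01%. Both *Arrb2* calls were lost at E11 alone (0.0281 against CD44Neg and 0.0329 against CD44LowKitNeg) and with stages matched, both calls against CD44LowKitPos under limma voom (0.137 and 0.105), and *Adcy7* against CD44LowKitNeg under DESeq2 (0.0102).

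**Figure D5:**
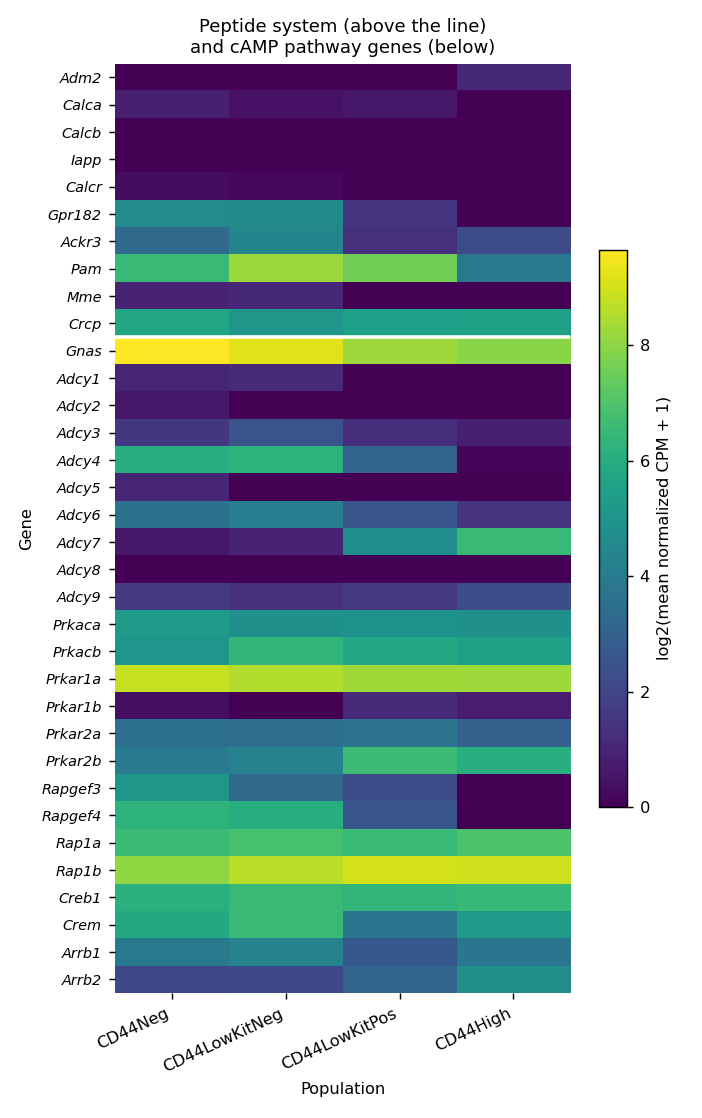
Mean normalized CPM, as log2 of the mean plus 1 (colour), of the 10 peptide system genes and 24 cyclic AMP pathway genes (rows) in the 4 populations (columns). *Adcy4*, *Rapgef3* and *Rapgef4* go from bright in CD44Neg to dark in CD44High, and *Adcy7* goes the other way, from 0.554 to 90.3 CPM.

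*Gnas*, which encodes the stimulatory G protein that couples the receptor to the cyclases and whose locus also holds antisense transcripts, was the 1 cyclic AMP gene of 18 called between E11 and E9.5 in CD44Neg, beside 0.684% of all genes. It was at 1343 ± 237 CPM at E11 (SD, n = 3) and 517 ± 105 at E9.5 (SD, n = 4), a difference of 1.40 ± 0.25 on the log2 scale (SE, edgeR adjusted p = 0.00854), and with all libraries fitted by population and stage the adjusted p was 0.0207. The call was also lost in 7 of the 10 analyses that left out a library.

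The 11 other receptors reported to pair with RAMPs were low. Summed over the 11, they reached at most 11.3 CPM in a CD44Neg library, 29.6 in CD44LowKitNeg, 9.60 in CD44LowKitPos and 9.57 in CD44High. In CD44LowKitNeg, *Gper1*, which encodes an estrogen-responsive receptor, was at 6.54 ± 6.48 CPM, close to the *Adm* mean there, and *Vipr2*, which encodes a receptor for vasoactive intestinal peptide, was at 5.06 ± 5.13 CPM (SD, n = 6 each). At most 2 of them had enough counts to be tested in any comparison, and edgeR, DESeq2 and limma voom each called 0 in all 11 comparisons, where edgeR called 0 to 16% of all genes. At an unadjusted p under 0.05 it was at most 1 in any comparison, by each tool, beside 8.68 to 37.5% of all genes by edgeR. So few genes could be tested that nothing is read from these counts.

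*Adm* is a known target of the hypoxia-inducible factors, so 17 other such targets were read beside it. Between CD44LowKitNeg and CD44Neg, 3 were called lower and 1 higher of 17, beside 10.2% of all genes called, with a median log2 fold change of -0.69 beside 0.01 over all genes. The glucose transporter gene *Slc2a1* was at 248 ± 107 against 800 ± 207 CPM, and the glycolytic genes *Ldha* and *Pgk1* were at 613 ± 171 against 2156 ± 462 and at 139 ± 46.2 against 379 ± 130 CPM (SD, n = 6 and 10). *Ldha* and *Pgk1* have near-identical copies elsewhere in the genome, so their counts are uncertain.

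The 1 target called higher was *Vegfa*, the endothelial growth factor gene, at 26.9 ± 20.1 against 3.35 ± 3.37 CPM (SD, n = 6 and 10), a call lost with stage as a covariate (edgeR adjusted p = 0.0156), with stages matched, at E11 alone, under limma voom and without CD44LowKitNeg replicate 12 or 13. CD44High against CD44LowKitNeg called 4 of the 17 targets, *Ldha*, *Bnip3* and *Pgk1* higher and *Vegfa* lower, beside 16% of all genes. CD44LowKitPos against CD44LowKitNeg called 1 of 17, *Ldha*, higher, beside 4.26%, and CD44LowKitPos against CD44Neg called 2 of 17, *Slc2a1* and *P4ha1*, lower, beside 3.48%. CD44High against CD44Neg called 1 of 17, *Slc2a1*, lower, beside 14.4%. The *Ldha* call in CD44LowKitPos was lost with stages matched (edgeR adjusted p = 0.0162) and without CD44LowKitPos replicate 17. The *Slc2a1* call in CD44LowKitPos was lost with stage as a covariate (0.0174), with stages matched (0.0274) and in 16 of the 22 analyses that left out a library, and the *P4ha1* call without CD44LowKitPos replicate 17 or 18. Of the calls between CD44High and CD44LowKitNeg, *Pgk1* was lost in 4 of those 22 analyses and *Vegfa* in 2.

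The genes whose log2 CPM followed each gene most closely across the 22 libraries were named among 11718 genes, as a description. The points share populations, stages and dates, so r mostly reflects the differences between populations. *Calcrl* was followed by *Fn1*, fibronectin (Pearson r = 0.96), *Mecom*, a transcription factor (0.95), and *Pam* (0.94). *Ramp2* was followed by 3 genes of the endothelial surface or its matrix, *Mmrn2* (0.99), *Ptprb* (0.99) and *Clec14a* (0.98), each with no count in CD44High.

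*Adm* was followed less closely, by *Filip1* (Pearson r = 0.88), *Cdc42ep2* (0.87) and *Tax1bp3* (0.84). *Ramp3* was followed by *Lalba* (0.93), *Irx3* (0.92) and *4930542D17Rik* (0.92), all of them with their highest mean in CD44Neg. Of these, *4930542D17Rik* was at 12.9 ± 5.45 CPM in CD44Neg (SD, n = 10) and still at 4.62 ± 6.75 CPM in CD44LowKitNeg (SD, n = 6). *Fn1* was at 2532 ± 681 CPM in CD44LowKitNeg (SD, n = 6) and 420 ± 147 in CD44Neg (SD, n = 10), and *Mecom* at 451 ± 58.1 and 77.3 ± 34.2 CPM. *Ramp1* had too few libraries with 10 counts to be ranked.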

How the data were processed

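The authors sorted 25 cells per library, made cDNA with SMART-Seq2 (14 cycles of pre-amplification) and Nextera libraries, clipped adaptors with FASTX, mapped with STAR and counted with htseq-count. The submitters' processing notes name mm10, FastQC and HTSeq. The annotation and strand setting are not given in the sources used here. The deposited values are raw counts per gene, whole numbers that were not normalized. SMART-Seq2 has no molecular identifiers, so counting intervals and floors cover counting error only. Rn45s, the ribosomal RNA precursor, took 1.92 to 23.9% of counts.

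Counts were analysed with edgeR 4.0.16 in R 4.3.3: filterByExpr (minimum count 10, minimum total 15), TMM factors, glmQLFit and glmQLFTest with a prior count of 0.125. Comparisons between CD44Neg and CD44LowKitNeg used their 16 libraries, those with CD44LowKitPos or CD44High all 22, and stage comparisons the population concerned. Alternatives were DESeq2 1.42.0 size factors and Wald test, limma 3.58.1 voom, no filter, a threshold of 0.05, stage as a covariate, a fit by population and stage, E11 libraries, leaving out each library, and leaving out Rn45s (chosen after seeing the data). Every edgeR script was tested on simulated data. CPM per kilobase used exonic bases of GENCODE vM21 coding transcripts. The result of 1 listed gene is not reported here. Named genes were the 5 genes, list genes called in a comparison, and per gene the 3 with the highest Pearson r of log2 CPM. Calca, Calcb, Iapp, Adm2, Calcr, Gper1, Vipr2 and the cell type markers fall outside that rule and were named after their values were seen. The genes, lists and tests were chosen with earlier results of these data known.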

Additional observations from a re-analysis of the deposited data

Results flagged for a closer look

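*Ramp3* in CD44LowKitNeg had 1 library that stood apart from the others: replicate 16, of E10, at 3.92 CPM (29 counts), against 0 to 0.695 CPM in the other 5. Its gap to the nearest library was 0.823 of the whole range, above the 95% critical value of Dixon's test for 6 libraries. Among 15 sets of values examined this way it was the 1 set that passed. For normally distributed values chance alone flags about 1 in 20. That rate does not hold for this set, in which only 2 of the 6 libraries had any count.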

How the results depend on the processing

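Most values kept their direction and their side of the threshold: of 3246 recomputed values, 2817 did. The numbers of the 5 genes called that moved by over 1.5 times were as follows. CD44LowKitPos against CD44LowKitNeg went from 2 to 1 with stages matched. CD44LowKitPos against CD44Neg went from 1 to 3 at a threshold of 0.05 and with DESeq2, to 2 with limma voom and with stages matched, and to 0 with stage as a covariate. CD44Neg at E11 against E9.5 went from 0 to 1 at 0.05, without the filter, with DESeq2 and with voom. The interaction went from 0 to 2 without the filter and 1 with DESeq2. Leaving out each library gave 1 to 3 genes for CD44LowKitNeg against CD44Neg, 0 to 3 for CD44LowKitPos against CD44LowKitNeg (0 without CD44LowKitPos replicate 17 or 18, 1 without CD44LowKitNeg replicate 12), 0 to 1 for CD44LowKitPos against CD44Neg, 2 for CD44High against CD44LowKitPos, 3 to 4 for CD44High against CD44LowKitNeg or CD44Neg, 0 for every stage comparison including CD44LowKitNeg, and 0 for the interaction. The log2 *Ramp2* to *Calcrl* ratio difference ranged from -1.82 to -1.35 between CD44LowKitNeg and CD44Neg and from -1.42 to -0.77 between CD44LowKitPos and CD44LowKitNeg.

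Reversed signs occurred in values that were not called, and the cause was not tested. Leaving out each library gave *Ramp3* values from -5.22 to 1.59 in CD44LowKitPos against CD44LowKitNeg, -4.65 to 2.14 in CD44High against CD44LowKitPos and -0.57 to 0.37 in CD44Neg at E10 against E9.5. It gave *Calcrl* values from -0.43 to 0.26 at E10 against E9.5, -0.89 to 0.085 at E11 against E10, -0.046 to 0.18 in CD44LowKitNeg at E11 against earlier stages and -0.082 to 0.87 in the interaction. *Ramp3* turned to 1.59 in CD44LowKitPos against CD44LowKitNeg without CD44LowKitNeg replicate 16, to 2.14 in CD44High against CD44LowKitPos without CD44LowKitPos replicate 19, and to 2.12 (stages matched) and 2.06 (E11) in CD44High against CD44LowKitNeg. In CD44Neg at E10 against E9.5 it turned to -0.036 (voom), -0.022 (population and stage), and -0.19, -0.062 and -0.57 without replicates 5, 6 and 8. *Calcrl* turned there to -0.019 (population and stage), -0.12 and -0.43 without replicates 4 and 10. It turned to 0.085 at E11 against E10 and to -0.082 in the interaction without replicate 10, and to -0.046 in CD44LowKitNeg at E11 against earlier stages without replicate 12.

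Counts over all genes moved too. CD44LowKitNeg against CD44Neg called 1121 genes, 2217 at 0.05, 1746 with DESeq2 and 376 at E11. CD44LowKitPos against CD44LowKitNeg called 552, then 1619, 1265, 1244 with voom, 366 with stage as a covariate and 128 with stages matched. CD44LowKitPos against CD44Neg called 451, then 941 at 0.05, 829 with DESeq2 and 729 with voom. CD44High called 390 against CD44LowKitPos (784 at 0.05, 716 with DESeq2), 2067 against CD44LowKitNeg (3471 at 0.05) and 1864 against CD44Neg (2917 at 0.05, 1011 at E11). At 0.05, without the filter, with DESeq2 and with voom, CD44Neg at E11 against E9.5 went from 77 to 352, 279, 429 and 172 (6 by population and stage), E10 against E9.5 from 2 to 105, 116, 231 and 22 (0 by population and stage), E11 against E10 from 0 to 6, 24, 45 and 4, with 977 genes at an unadjusted p under 0.05, and CD44LowKitNeg stages from 19 to 235, 163, 558 and 68 (178 by population and stage). The interaction went from 1 to 23, 190 and 125 at 0.05, without the filter and with DESeq2. Leaving out each library gave 875 to 1222 genes for CD44LowKitNeg against CD44Neg, 65 to 687 for CD44LowKitPos against CD44LowKitNeg, 159 to 630 for CD44LowKitPos against CD44Neg, 251 to 408, 1334 to 2176 and 1340 to 1889 for CD44High against CD44LowKitPos, CD44LowKitNeg and CD44Neg, 8 to 98, 0 to 3 and 0 to 1 for CD44Neg at E11 against E9.5, E10 against E9.5 and E11 against E10, 0 to 2 for CD44LowKitNeg stages and 0 to 3 for the interaction.

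Groups of 3 libraries limit every comparison with CD44LowKitPos or CD44High, and a few counts decide *Ramp3* and *Adm* there. CD44High and CD44LowKitPos share no stage, so no stage-matched value could be had. No paired analysis was possible because the replicate numbers in the labels run from 1 to 22 and no groups share any.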
